A study of Mus musculus with 24 samples.

Results

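The genes described here are 31 genes of sterol and fatty acid synthesis that are targets or parts of the SREBP system. They were taken from a fixed list of symbols, chosen with earlier results of these data known, out of 15839 genes with reads in either of the cell lines studied. The sterol branch holds 21 of them, the fatty acid branch holds 9, and Scap serves both branches. All 31 had reads in C2C12 cells and 29 had reads in NSC34 cells, where Mvk and Ebp had none.

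SREBPs are membrane-bound transcription factors. When membrane sterol is low, the escort protein Scap carries them from the endoplasmic reticulum to the Golgi, where they are cut and released to the nucleus; when sterol is high, Insig proteins hold Scap back. The Srebf2 product acts mainly on genes of cholesterol synthesis and uptake, and the Srebf1 products act more on genes of fatty acid synthesis and desaturation. In muscle cells the sterol branch also supplies isoprenoids for protein prenylation, and the fatty acid branch supplies membrane lipid.

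The groups were C2C12 cells co-cultured with NSC34 cells, C2C12 cells grown alone, NSC34 cells co-cultured with C2C12 cells, and NSC34 cells grown alone, with 6 libraries in each group. C2C12 is a mouse myoblast line that can form myotubes, and NSC34 is a mouse hybrid line with motor neuron features. The labels give the genotype of every sample as WT, and the co-culture lasted 3 days. Total RNA was extracted with Trizol and read on a Nanopore MinION. Nothing in the labels says how cells of the lines were separated or whether libraries of a group came from separate cultures, so p-values measure the spread between these libraries, which may be technical.

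C2C12 libraries held 143502 to 547071 reads in co-culture and 121154 to 658075 reads in controls. NSC34 libraries held 2807 to 30314 reads in co-culture and 88 to 4624 reads in controls. C2C12 had reads on 15 of 15 muscle markers and on 10 of 15 neuronal markers, with Chat, Slc18a3, Isl1, Mnx1 and Nefh at 0. Of the neuronal markers with reads in C2C12, Stmn2 had 193 in co-culture and 176 in controls, Tubb3 93 and 97, and Gap43 39 and 36. NSC34 had reads on 10 of 15 neuronal markers, among them Uchl1 with 72 reads in co-culture and 14 in controls, but Mnx1, Slc18a3, Stmn2, Nefh and Nefm were at 0 and Chat had 1 read. NSC34 had reads on 4 of 15 muscle markers, 20 in co-culture and 4 in controls, with Myog, Myod1, Des and Acta1 at 0. Of those reads, 17 in co-culture and 3 in controls were on Chrna1. The labelled identity of NSC34 therefore rests on few markers.

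RefSeq windows of 300 bases, from 250 bases before to 50 after the annotated start (GRCm38.p6), were found for 24 of the 31 genes. Scd2, Fdft1, Scd1, Fdps, Fads1, Stard4 and Sqle had none. Each window was searched on both strands for a sterol response element written as TCACNCCAC, for CCAAT (the NF-Y motif), for GGGCGG (a GC box) and for CACGTG (an E-box). The sterol response element was found in 1 of the 24 genes, Hmgcs1, at bases 114 to 122 of its window, and in 1.44% of 27025 genes with a window. CCAAT was present in 16 of 17 sterol genes and 3 of 6 fatty acid genes, compared with 41.1% of all genes. GGGCGG was likewise present in 16 of 17 sterol genes and 3 of 6 fatty acid genes, compared with 38.2% of all genes. CACGTG was present in 5 of the 24, Dhcr7, Hsd17b7, Insig1, Sc5d and Scap, compared with 8.09% of all genes. A match is a description of letters and not a measured binding site. Windows are printed for Hmgcs1, the gene that passed the test, Idi1, a tested enzyme of the mevalonate pathway, Nsdhl, which passed only when low-count genes were admitted, and Insig1, the regulator. They lie at chr13:119690101-119690400, chr13:8885356-8885655, chrX:72918271-72918570 and chr5:28071162-28071461, all on the plus strand. Capitals mark TCACNCCAC and CCAAT, which reads as ATTGG where it lies on the other strand.
Hmgcs1: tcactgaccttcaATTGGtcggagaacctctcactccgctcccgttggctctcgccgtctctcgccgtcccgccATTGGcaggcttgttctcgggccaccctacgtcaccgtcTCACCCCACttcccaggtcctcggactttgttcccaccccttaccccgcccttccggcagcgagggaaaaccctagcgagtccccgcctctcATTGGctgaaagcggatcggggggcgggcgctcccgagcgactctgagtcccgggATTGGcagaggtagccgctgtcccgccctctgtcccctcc
Idi1: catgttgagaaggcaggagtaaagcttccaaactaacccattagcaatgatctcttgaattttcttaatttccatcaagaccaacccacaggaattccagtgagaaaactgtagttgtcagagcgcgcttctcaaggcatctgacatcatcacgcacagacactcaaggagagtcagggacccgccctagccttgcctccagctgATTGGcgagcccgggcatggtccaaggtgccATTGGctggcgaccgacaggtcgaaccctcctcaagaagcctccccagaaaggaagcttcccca
Nsdhl: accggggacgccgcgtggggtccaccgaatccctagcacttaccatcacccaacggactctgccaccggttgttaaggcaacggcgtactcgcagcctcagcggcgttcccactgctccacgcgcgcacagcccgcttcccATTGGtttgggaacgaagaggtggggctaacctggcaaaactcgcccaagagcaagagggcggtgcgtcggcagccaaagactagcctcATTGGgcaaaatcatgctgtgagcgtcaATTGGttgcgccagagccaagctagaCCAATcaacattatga
Insig1: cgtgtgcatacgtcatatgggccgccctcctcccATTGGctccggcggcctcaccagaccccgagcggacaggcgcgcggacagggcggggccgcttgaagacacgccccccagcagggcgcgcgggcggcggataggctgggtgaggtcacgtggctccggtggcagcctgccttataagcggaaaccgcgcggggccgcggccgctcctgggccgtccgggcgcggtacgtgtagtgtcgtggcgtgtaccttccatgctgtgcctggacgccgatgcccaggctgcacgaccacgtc

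In co-cultured C2C12 cells, reads of the sterol branch were a smaller share of all reads than in control C2C12 cells, and those of the fatty acid branch were smaller by a similar proportion. The sterol genes together took 0.124%, 0.11%, 0.107%, 0.121%, 0.107% and 0.123% of reads in the co-cultured libraries 1 to 6, against 0.136%, 0.157%, 0.166%, 0.166%, 0.17% and 0.161% in controls. Every co-cultured library lay below every control. The means were 0.115% ± 0.00823 in co-culture and 0.159% ± 0.0123 in controls (SD, n = 6 each), a ratio of 0.724. Without Hmgcs1 the ratio was 0.746 and the groups overlapped. The fatty acid genes took 0.0447% to 0.0606% in co-culture and 0.0587% to 0.0853% in controls, with means of 0.0544% ± 0.00585 and 0.0726% ± 0.00972 (SD, n = 6 each). Their groups overlapped, and the ratio was 0.749. The log2 ratio of sterol to fatty acid reads averaged 1.09 ± 0.23 in co-culture and 1.14 ± 0.16 in controls (SD, n = 6 each), so the balance between the branches differed by less than the spread between libraries. The difference of -0.05 turned to 0.14 when the gene with the most reads was left out of each branch. These sums were not tested, since the genes were chosen with results known. In bulk RNA, fewer cells of a type and less RNA per cell cannot be told apart.

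**Figure D1:**
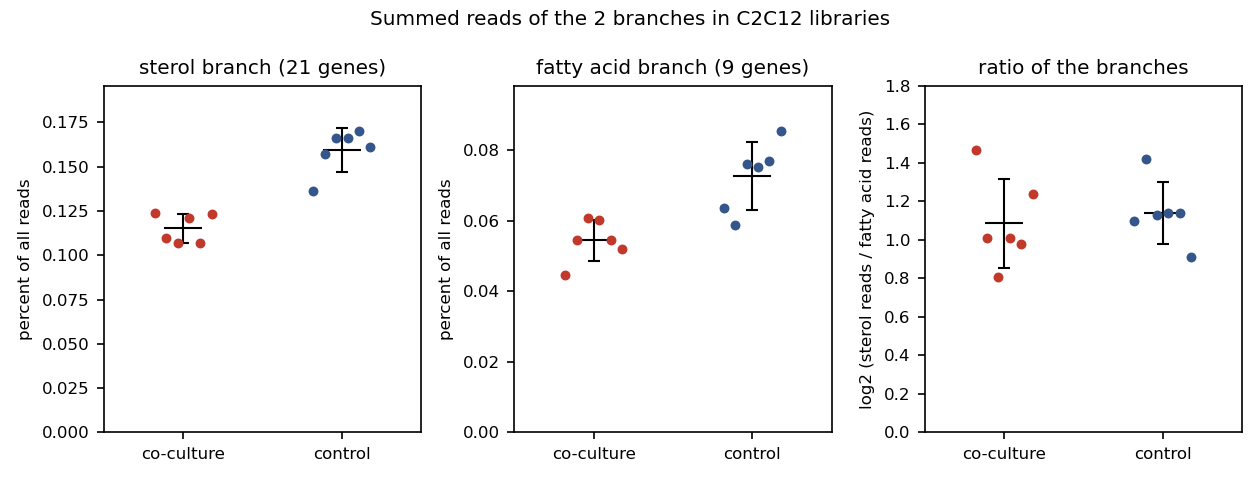
Reads of the sterol and fatty acid branches in C2C12 as percent of all reads in each library (vertical axis), with co-culture left of control, and the log2 ratio of the branches in the right panel; points are libraries in the order 1 to 6, and the lines give the mean and SD. The sterol groups do not overlap (0.115% in co-culture and 0.159% in controls), while the fatty acid groups do.

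Markers of dividing cells moved with these sums. Summed over 11 of 11 proliferation markers, the level was 317 to 390 CPM (read counts scaled to library total) of all reads in co-culture, median 364, and 443 to 564 CPM in controls, median 507. The groups did not overlap. Of these markers 4 were tested and Top2a, a topoisomerase of dividing cells, fell (log2 fold change -1.18, adjusted p = 0.0457 in edgeR), where 1.44% of all tested genes passed. Summed muscle markers were 42180 to 48725 CPM in co-culture and 38388 to 45496 CPM in controls, and these ranges overlapped. Of the muscle markers 14 were tested, with log2 fold changes above 0 for 9 and below 0 for 5, and 1 passed. That gene was Myog, a transcription factor of muscle differentiation, which rose (log2 fold change 0.43, adjusted p = 0.0457 in edgeR). Ttn, the gene of the sarcomere protein titin, stood at -0.64 on the log2 fold scale and did not pass (adjusted p = 0.104 in edgeR). Both calls depended on the setting, with adjusted p up to 0.131 for Top2a and 0.168 for Myog. Top2a passed in 4 of 8 other settings and in 3 of 12 fits with 1 library left out. Myog passed in 7 of 10 other settings and in 4 of 12 such fits. Control library 6 lay within the co-culture range of Top2a. Summed adipocyte markers, 3 of 8 with reads and Adipoq, Plin1, Cidec, Lep and Cfd at 0, were 59.8 to 125 CPM in co-culture and 50.1 to 84.4 CPM in controls. That sum was nearly all Lpl, with 160 of 166 reads in co-culture and 92 of 94 in controls. The part of the cells these markers stand for in the values of the lipid genes was not tested.

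Gene by gene, 12 of the 31 passed the filter on low counts in C2C12, 9 sterol and 3 fatty acid genes, and were tested among 2570 genes with edgeR's quasi-likelihood test. Of the 12, 1 passed at an adjusted p under 0.05, Hmgcs1, which fell; of all tested genes 1.44% passed, and 0.623% passed lower in co-culture. All 12 fold changes were below 0 (11 with a length trend removed, where Acly was at 0.05), against 49.5% of all tested genes. An unadjusted p under 0.05 with a lower level was seen for 8 of the 12, against 8.83% of all tested genes. With the length trend removed, 6 of the 12 had an unadjusted p under 0.05 in edgeR. Over all 2570 genes that fit gave 335 in either direction. None of the 12 had all 6 co-cultured libraries below all 6 controls, against 0.506% of all tested genes. For 6 of the 12, each co-cultured library was under the median of the controls, against 12.1% of all tested genes. The median log2 fold change was -0.44 over the 9 sterol genes and -0.64 over the 3 fatty acid genes, against 0.00 over all tested genes. The filter kept only genes with enough reads, so these counts describe 12 genes and not the 31. The genes were chosen with earlier results of these data known. Setting their counts beside the shares of all genes, here and below, is therefore a description and no test of the set. The levels that follow are CPM of the reads of tested genes, scaled by TMM (an edgeR scaling that evens out composition).

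**Figure D2:**
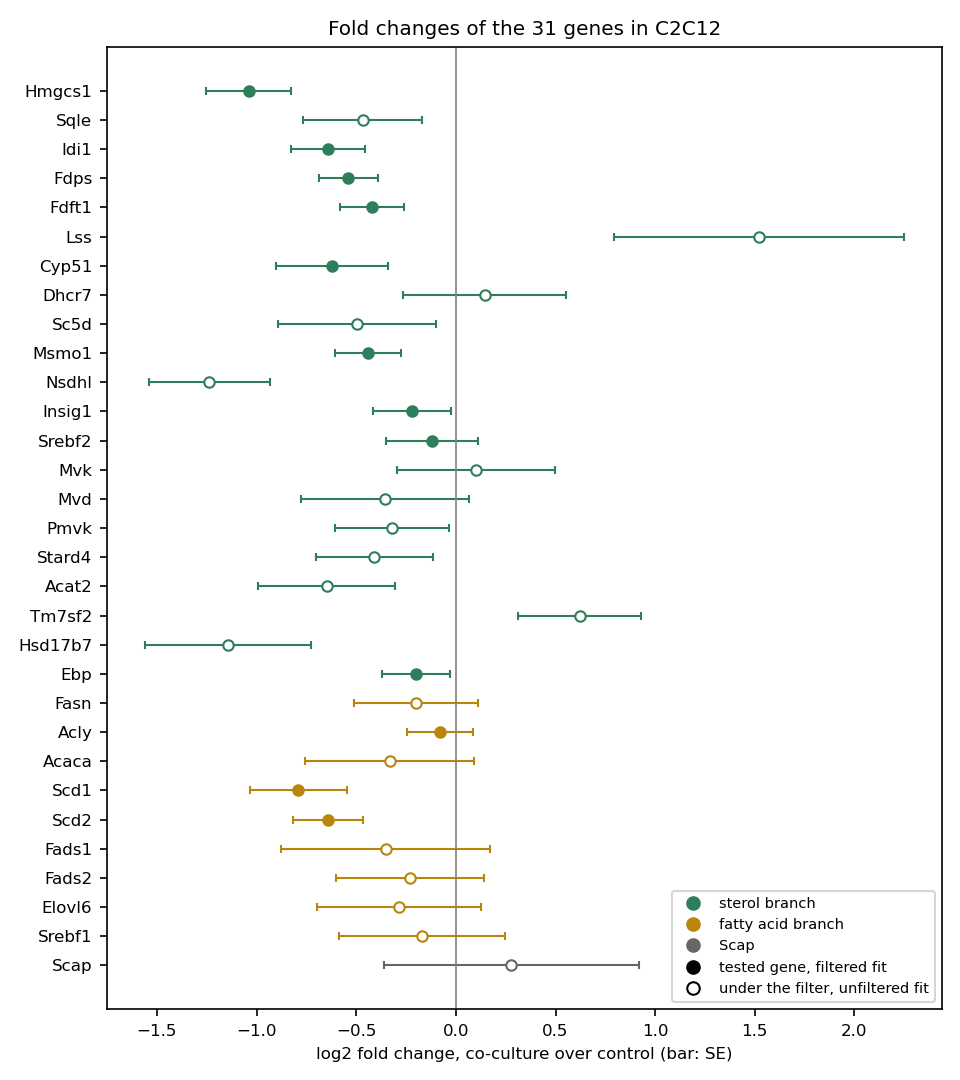
Fitted log2 fold changes of the 31 genes in C2C12, co-culture over control (horizontal axis), with bars of 1 standard error. Filled points are the 12 tested genes, from -1.04 for Hmgcs1 to -0.08 for Acly, and open points are the 19 under the filter, taken from the fit of all genes. The fits differ in scaling, and in the fit of all genes Hmgcs1 stood at -0.95.

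The mevalonate pathway makes the isoprene unit of sterols. Hmgcs1 (chromosome 13, 119690379 to 119708260, GRCm38) encodes the cytosolic HMG-CoA synthase at its start. Its level was 51.4, 58.2, 63.4, 67, 97.1 and 71.8 CPM in the co-cultured libraries 1 to 6, and 213, 117, 165, 125, 153 and 88.8 CPM in controls. All co-cultured libraries but library 5 were below every control. The means were 68.2 ± 15.8 CPM in co-culture and 144 ± 43.3 CPM in controls (SD, n = 6 each), a log2 fold change of -1.04 with SE 0.215 (adjusted p = 0.0167 in edgeR). The adjusted p was 0.0682 without co-culture library 2, 0.0547 without control library 3 and 0.0685 without control libraries 1 and 4 together. Idi1 (chromosome 13, 8885501 to 8892451) encodes the isomerase that converts the pathway's isoprene unit to its reactive form. Its level was 62.4 to 87.2 CPM in co-culture, median 78.1, and 84 to 135 CPM in controls, median 133. All co-cultured libraries but library 3 were below every control, and the log2 fold change of -0.64 with SE 0.186 did not pass (adjusted p = 0.0758 in edgeR). Fdps (chromosome 3, 89093588 to 89101959, minus strand) encodes farnesyl diphosphate synthase, which feeds both sterols and prenylation. Its level was 222 to 382 CPM in co-culture, median 240, and 287 to 475 CPM in controls, median 377. The top co-cultured library reached into the control range, and the log2 fold change was -0.54 with SE 0.147 (adjusted p = 0.0587 in edgeR). Fdps passed in some settings: its adjusted p was 0.0476 with library totals, 0.0308 with DESeq2, 0.0295 with limma-voom and 0.0395 with the length trend removed. With 1 library left out, the adjusted p in edgeR ran from 0.00949 without co-culture library 1 (log2 fold change -0.70) to 0.165 without control library 3 (log2 fold change -0.47). Stretches of Fdps sequence were found in 6 other annotated genes and stretches of Idi1 in 4, all of them with 0 reads.

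Of the tested genes for the steps from farnesyl diphosphate to cholesterol, none passed. Fdft1 encodes squalene synthase. Its level was 87.3 to 111 CPM in co-culture, median 96.9, and 102 to 174 CPM in controls, median 128, and the ranges overlapped. The log2 fold change was -0.42 with SE 0.16 (adjusted p = 0.207 in edgeR). Fdft1 shares 774 identical bases with Ctsb, which had 999 reads compared with 330 for Fdft1, so its reads may be split between the genes. Cyp51, the lanosterol demethylase, had 7.93 to 81.9 CPM in co-culture, median 41.6, and 48.2 to 92.5 CPM in controls, median 61.3. The ranges overlapped widely and the log2 fold change was -0.62 with SE 0.281 (adjusted p = 0.309 in edgeR). Msmo1, an oxidase of the sterol ring's methyl groups, had 77.6 to 143 CPM in co-culture, median 124, and 125 to 165 CPM in controls, median 160. Its ranges overlapped and its log2 fold change was -0.44 with SE 0.167 (adjusted p = 0.207 in edgeR). With reads on protein-coding transcripts alone, Msmo1 fell by 0.72 on the log2 scale (adjusted p = 0.0402 in edgeR). Of all its reads 30.3% were on retained-intron transcripts. Ebp, a sterol isomerase, had a log2 fold change of -0.20 with SE 0.17 (adjusted p = 0.68 in edgeR).

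**Figure D3:**
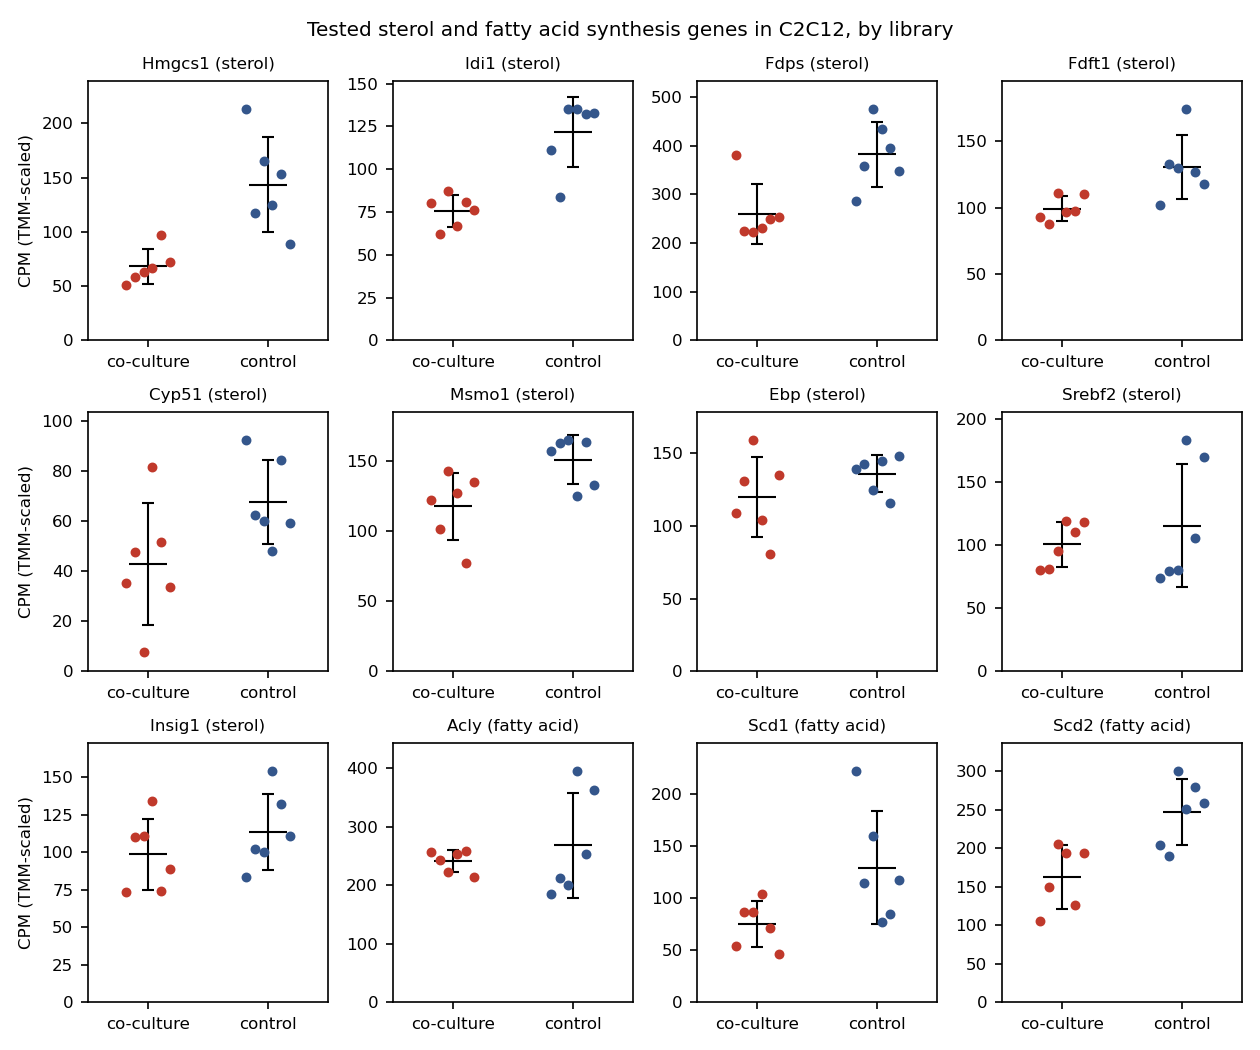
Levels of the 12 tested genes in C2C12 in each library (CPM of tested genes, TMM scaled), with co-culture left of control in each panel; each point is 1 of 6 libraries, in the order 1 to 6, and the lines give the mean and SD. Hmgcs1 lies at 51.4 to 97.1 CPM in co-culture and 88.8 to 213 CPM in controls.

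The remaining 19 genes had too few reads for the filter. When all 15439 genes with reads were fitted, 25 of the 31 had a log2 fold change below 0 and 6 above, against 49.6% below 0 over all genes. The scaling of that fit differed from that of the tested genes. It gave -0.95 for Hmgcs1, compared with -1.04, and -0.55 for Idi1, compared with -0.64. The CPM levels below keep the scaling of the tested genes. The count that passed was 2, Hmgcs1 and Nsdhl, both lower, against 0.33% of all genes passing lower. Nsdhl (chromosome X, 72918557 to 72958514) encodes a dehydrogenase that acts with Msmo1 on the methyl groups of the sterol ring. Its level was 41.7, 24.9, 31.7, 29.8, 16.2 and 21.1 CPM in co-culture, and 55.5, 80.8, 45, 48.2, 68.6 and 96.2 CPM in controls. Every co-cultured library was below every control. The log2 fold change was -1.24 with SE 0.304 (adjusted p = 0.0114 in edgeR), and with genes of a mean count of at least 10 it was -1.32 (adjusted p = 0.0162). That second fit tested 18 of the 31, and 2 passed lower, against 0.685% of its genes. Sqle, squalene epoxidase, had 36.8 ± 10.9 CPM in co-culture and 57.2 ± 11.3 CPM in controls (SD, n = 6 each), with a log2 fold change of -0.47 and an edgeR adjusted p of 0.611. Hsd17b7, the ketone reductase of the same methyl removal, had 15.8 ± 8.38 CPM in co-culture and 35.3 ± 11.3 CPM in controls (SD, n = 6 each), a log2 fold change of -1.14 and an edgeR adjusted p of 0.283. In the other direction, Lss, which closes the sterol ring, had 11 ± 7.84 CPM in co-culture and 2.71 ± 4.3 CPM in controls (SD, n = 6 each), a log2 fold change of 1.52 and an edgeR adjusted p of 0.549. Those levels of Lss rest on 17 reads in co-culture and 5 in controls. Of these reads, 35.3% in co-culture and 100% in controls were on retained-intron transcripts. Tm7sf2, a sterol reductase, had 49 ± 19.8 CPM in co-culture and 32.6 ± 7.3 CPM in controls (SD, n = 6 each), a log2 fold change of 0.62 and an edgeR adjusted p of 0.598, and 76.6% of its reads were on retained-intron transcripts. Among the rest of the sterol genes under the filter, the log2 fold change was -0.65 for the thiolase gene Acat2, -0.49 for the desaturase gene Sc5d, -0.41 for the sterol carrier gene Stard4, -0.36 for Mvd, -0.32 for Pmvk, 0.10 for Mvk and 0.14 for the reductase gene Dhcr7. None of these passed. On the scaling of the tested genes, the mean levels of Mvk and Dhcr7 were lower in co-culture. Mvk had 21.3 CPM in co-culture and 26.4 CPM in controls, and Dhcr7 had 22 and 23.1 CPM.

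The regulators gave no call. Srebf2 (chromosome 15, 82147181 to 82205379) had 80.3 to 119 CPM in co-culture, median 103, and 74 to 183 CPM in controls, median 92.8. The ranges overlapped throughout, and the log2 fold change was -0.12 with a 95% interval from -0.60 to 0.36 (adjusted p = 0.898 in edgeR). Of its reads 53.8% were on retained-intron transcripts. Insig1 (chromosome 5, 28071363 to 28078662) had 73.8 to 134 CPM in co-culture, median 99.4, and 83.3 to 154 CPM in controls, median 107. These ranges overlapped, with a log2 fold change of -0.22 with a 95% interval from -0.63 to 0.18 (adjusted p = 0.689 in edgeR). Srebf1 was under the filter with 19.7 ± 13.8 CPM in co-culture and 26.9 ± 12.5 CPM in controls (SD, n = 6 each), and Scap with 8.99 ± 6.13 CPM in co-culture and 7.03 ± 3.91 CPM in controls (SD, n = 6 each).

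In the fatty acid branch, the desaturases gave the largest fitted differences. Scd1 and Scd2 (both on chromosome 19) encode stearoyl-CoA desaturases that put the first double bond into saturated fatty acids. Scd1 had 46.5 to 104 CPM in co-culture, median 79.2, and 77.1 to 222 CPM in controls, median 117. Each co-cultured library was under the median of the controls, and the log2 fold change was -0.79 with SE 0.243 (adjusted p = 0.099 in edgeR). Scd2 had 106 to 206 CPM in co-culture, median 172, and 190 to 300 CPM in controls, median 255. Again each co-cultured library was under the median of the controls, and the log2 fold change was -0.64 with SE 0.176 (adjusted p = 0.0587 in edgeR). Scd1 and Scd2 share 623 bases at 95.5% identity, so reads may be split between them. Acly (chromosome 11, 100476353 to 100528000, minus strand) encodes ATP-citrate lyase, which makes cytosolic acetyl-CoA for both branches. It had 215 to 259 CPM in co-culture, median 248, and 185 to 395 CPM in controls, median 233. The ranges overlapped throughout and the log2 fold change was -0.08 with a 95% interval from -0.43 to 0.26 (adjusted p = 0.898 in edgeR). Fasn, fatty acid synthase, was under the filter with 39.8 ± 12.5 CPM in co-culture and 50.1 ± 24.4 CPM in controls (SD, n = 6 each). In the fit of all genes, the log2 fold change was -0.20 for Fasn, -0.33 for Acaca, the acetyl-CoA carboxylase gene, -0.28 for the elongase gene Elovl6, and -0.35 and -0.23 for the desaturase genes Fads1 and Fads2. None of these passed.

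Of other pathway genes in C2C12, none passed in either direction among those tested: 3 of 12 genes of SREBP processing, 2 of 12 of cholesterol export and uptake, 6 of 20 further fatty acid synthesis genes and 8 of 15 fatty acid oxidation genes. Only 1.44% of all tested genes passed, so the lack of calls among so few genes tells little about these pathways. Among the SREBP processing genes, Fbxw7, which marks nuclear SREBP for degradation, stood at -0.77 on the log2 fold scale (adjusted p = 0.158 in edgeR). Ube2g2, a ubiquitin-conjugating enzyme, went the other way at 0.49 (adjusted p = 0.287 in edgeR). Ufd1, a cofactor in the removal of proteins from the endoplasmic reticulum, stood at -0.19 (adjusted p = 0.85 in edgeR). Of the export and uptake genes, the lipoprotein receptor gene Lrp1 stood at -0.51 (adjusted p = 0.18) and Npc2, which moves cholesterol out of lysosomes, at -0.10 (adjusted p = 0.734). Of the fatty acid synthesis genes with the smallest p, Hacd1 and Tecr, which act in chain elongation, stood at 0.30 (adjusted p = 0.288) and -0.31 (adjusted p = 0.314), and Acsl4, an acyl-CoA synthetase, at -0.46 (adjusted p = 0.413). Of the oxidation genes, Hadha and Hadhb, the subunits of the mitochondrial trifunctional protein, stood at -0.44 (adjusted p = 0.223) and 0.45 (adjusted p = 0.416), and the acyl-CoA dehydrogenase gene Acadl at -0.28 (adjusted p = 0.562). The tested fatty acid oxidation genes had a median log2 fold change of 0.01.

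In NSC34 cells only 240 reads fell on the 31 genes, 188 in co-culture and 52 in controls. The test covered 49 genes, of which 0% passed (edgeR, 1 at an unadjusted p under 0.05, and 0 with DESeq2), and it held none of the 31. The interaction of line and co-culture covered the same 49 genes and gave 0 calls (4 at an unadjusted p under 0.05), so whether the lines differ in their response could not be tested for the 31. When genes with at least 10 reads in all were fitted, 6 of the 31 were tested and none passed, against 0.631% of 1109 genes. At an unadjusted p under 0.05 in edgeR there was 1 of the 6, against 96 of the 1109. That filter summed reads over both groups, which held 55007 reads in co-culture and 15858 in controls. Genes could therefore enter mainly through their co-culture reads. Acly had 6, 26, 7, 0, 12 and 4 reads in co-cultured NSC34 libraries 1 to 6, and 0, 1, 4, 0, 3 and 0 reads in controls. Pooled, that is 1000 CPM of all reads in co-culture (95% exact interval 753 to 1301) and 504 CPM in controls (218 to 994), and the intervals overlap. Its log2 fold change was 1.27 with SE 0.589 (adjusted p = 0.476 in edgeR), where the median over the 1109 genes was 0.37. Fdps had 21 reads in co-culture and 4 in controls, Scd2 21 and 3, Insig1 12 and 5, Srebf2 9 and 5, and Pmvk 10 and 3. Pooled over unequal totals, Fdps stood at 382 CPM in co-culture and 252 CPM in controls, and Scd2 at 382 and 189 CPM. Lower in co-culture were Insig1 at 218 and 315 CPM, Srebf2 at 164 and 315 CPM, and Pmvk at 182 and 189 CPM. The exact intervals of the groups overlapped for each of these genes. Pooled sterol genes had 1545 CPM in co-culture (1234 to 1910) and 2081 CPM in controls (1433 to 2921), and pooled fatty acid genes had 1854 CPM in co-culture (1512 to 2251) and 1198 CPM in controls (722 to 1870). The pooled intervals overlap in both branches, which is no test of a difference between the groups. By library, the fatty acid genes took 0.186%, 0.185%, 0.22%, 0.0663%, 0.199% and 0.214% of reads in co-cultured NSC34 libraries 1 to 6, and 0%, 0.147%, 0.175%, 0.0447%, 0.108% and 0% in controls. All co-cultured libraries but library 4 lay above every control. The means were 0.178% ± 0.0566 in co-culture and 0.0791% ± 0.0752 in controls (SD, n = 6 each), a ratio of 2.25. The controls at 0%, libraries 1 and 6, held only 88 and 822 reads in all, yet each counts fully in that mean. Pooled reads weight libraries by depth and gave the closer levels of 1854 and 1198 CPM above. The sterol genes took 0.0713% to 0.232% in co-culture, median 0.136%, and 0% to 0.357% in controls, median 0.185%, and these ranges overlapped. These shares were not tested, and the control shares rest on 19 fatty acid and 33 sterol reads. Co-culture library 2 held 30314 of the 55007 co-cultured reads. Without it the pooled co-culture level was 1377 CPM (954 to 1924) for sterol genes and 1863 CPM (1364 to 2484) for fatty acid genes. Hmgcs1 had 0 reads in co-cultured and 1 in control NSC34 libraries. With 3 reads of the pooled total taken as the limit for a count of 0, a gene without reads could still be at up to 54.5 CPM in co-culture and 189 CPM in controls. Intervals cover counting error only.

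**Figure D4:**
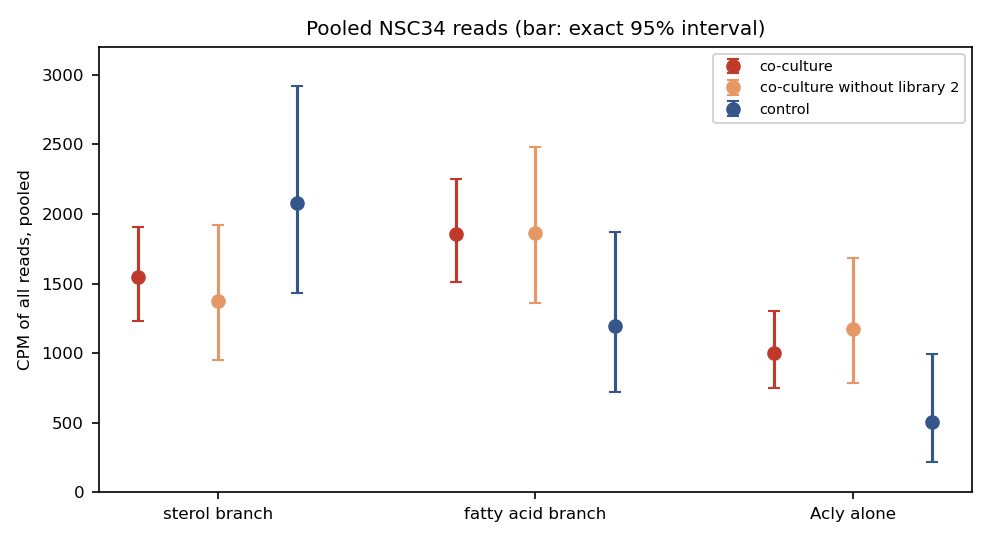
Pooled level in NSC34 (CPM of all reads) with exact 95% intervals, for co-culture, co-culture without library 2, and control, from left to right, for each branch and for Acly. Intervals of co-culture and control overlap for the sterol branch (1545 and 2081 CPM) and the fatty acid branch (1854 and 1198 CPM).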

How the data were processed

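Per the file headers and values, the authors' tables hold raw counts of reads per transcript, with a table for each line. In all 0 columns were unmatched to a sample. The genome build is GRCm38, per the submitters' processing notes. Which aligner, counter, annotation release and strand setting were used is not given in the sources used here. Transcripts were matched to genes with GENCODE annotation of GRCm38 and counts summed per gene. The match held for 37415 of 37677 transcripts in C2C12 and 10374 of 10427 in NSC34; the rest kept their own identifier. The reads carry no molecular identifiers, so intervals (exact Clopper-Pearson, 95%) and the limit of 3 reads for a count of 0 cover counting error only.

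Each line was fitted alone with edgeR 4.0.16 in R 4.3.3 (filterByExpr, TMM, quasi-likelihood F test, Benjamini-Hochberg over all tested genes, threshold 0.05); the fits were tested on simulated data. DESeq2 1.42.0, limma 3.58.1, other scalings, filters, a replicate block and left-out libraries were alternatives. Shared sequence was found with BLAST+ 2.17.0. The genes named are the tested members with an unadjusted p under 0.05, the regulators and main fatty acid genes, NSC34 members with at least 10 reads, and up to 3 genes of smallest p from each other pathway list. A further list of sterol genes is not reported here. Nsdhl, Sqle, Hsd17b7, Lss, Tm7sf2 and Ebp were named after their values were seen. Acat2, Sc5d, Stard4, Mvd, Mvk and Dhcr7 were also named outside those rules. So were the cell type markers, among them Top2a, Myog and Ttn. The members and lists were chosen with earlier results of these data known. Gene lengths and shared sequence limit values of near-identical genes.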

Additional observations from a re-analysis of the deposited data

Results flagged for a closer look

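Fdps in C2C12 had 382 CPM in co-culture library 1, above the other 5 co-cultured libraries, which lay at 222 to 253 CPM. The fatty acid branch in NSC34 took 0.0663% of reads in co-culture library 4, below the other co-cultured libraries at 0.185% to 0.22%. Both stand apart by Dixon's test at 95%, which by chance marks about 1 in 20 groups; 2 of 32 groups were marked here.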

How the results depend on the processing

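In C2C12, 37 genes passed. The count was 58 with library totals, 67 with DESeq2, 106 with no filter, 10 without control libraries 1 and 4 together, 26 with the replicate block, and 11 to 74 with 1 library left out. Of the sterol genes 1 passed (Hmgcs1; with DESeq2 the 1 was Fdps), and 2 with library totals, with limma-voom, with no filter, with a mean count of at least 10, with the length trend removed and with protein-coding transcripts alone; 0 without control libraries 1 and 4 together; and 0 to 2 with 1 library left out. Of the fatty acid genes 0 passed, 1 with DESeq2 (Scd2, adjusted p = 0.0321; DESeq2 gave no adjusted p for Hmgcs1, Idi1, Fdft1, Cyp51, Insig1, Srebf2 and Scd1) and 0 to 1 with 1 library left out. With the replicate block, Hmgcs1 had a log2 fold change of -1.04 and an edgeR adjusted p of 0.0426. Co-cultured and control libraries of the same number shared little deviation in C2C12 (correlations -0.05 to 0.10). In NSC34 the correlations ran from -0.23 to 0.32. These values cannot show whether libraries of the same number came from a common culture, which the labels do not state.

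In NSC34, 0 genes passed, 7 with at least 10 reads in all and 0 to 1 with 1 library left out. The interaction gave 0 under every setting run. The difference in branch share, co-culture minus control, was -0.0439 percentage points for C2C12 sterol genes (-0.0485 to -0.0418 with 1 library left out) and -0.0182 for fatty acid genes (-0.021 to -0.0157), and the log2 branch ratio differed by -0.05 (-0.13 to 0.00), by 0.14 with the leading gene of each branch left out and by -0.12 with protein-coding transcripts. In NSC34 the difference in branch share was taken between reads pooled over the libraries of each group, not between library means. It was -0.0536 percentage points for sterol genes (-0.0704 to -0.029 with 1 library left out, -0.202 with TMM totals). For fatty acid genes it was 0.0656 (0.0533 to 0.0842 with 1 library left out, 0.245 with TMM totals). With the leading gene of each branch left out, it was -0.0665 for sterol genes and 0.0161 for fatty acid genes. With 1 library left out, the log2 fold change of Srebf2 ran from -0.28 to 0.02 and that of Acly from -0.17 to 0.03. Srebf2 turned to 0.02 without control 4 and to 0.02 without control 6, and Acly to 0.00 with no filter, 0.03 and 0.02 without those controls, and 0.05 with the length trend removed. The cause was not tested. Depth limits NSC34 to a few reads per gene.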
